A study of Mus musculus with 20 samples.

Results

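Killer lectin-like receptors are surface proteins best known from natural killer (NK) cells, and their transcripts were measured here in CD4 T cells sorted by expression of T-bet. Genes were taken by name. The 7 genes described are Klrd1, Klrc1, Klrc2, Klrk1, Klrb1c, Klrb1b and Klrg1, out of 22878 gene symbols in the deposited tables and 35 symbols of the family. All 7 passed the filter on low counts in the spleen fit and in the lymph node fit. T-bet, encoded by Tbx21, is the transcription factor that directs T helper 1 differentiation.

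The RNA data were 12 libraries in 6 groups of 2. All mice were on a C57BL/6 background, and all carried a tdTomato gene at Rosa26 that stays silent until Cre removes a loxP-flanked stop. Spleen cells came from naive ZTCE-tdTomato mice, in which the T-bet reporter allele makes ZsGreen and a CreERT2 enzyme. They were CD44-high, CD25-negative and tdTomato+, and were split into ZsGreen-, with past T-bet expression, and ZsGreen+, with current expression. The sources used here do not say whether and when the inducible Cre was activated, nor how old the mice were. Lymph node cells came from T-bet-Cre mice with the same tdTomato gene, 16 days after immunization with the AS15 peptide in complete Freund's adjuvant, and bound the AS15 tetramer. Cells high in both CXCR5 and PD1 were taken as follicular helper T cells (Tfh) and cells low in both as non-Tfh cells, each Tomato- or Tomato+. Those mice had no reporter of current T-bet expression, so Tomato+ covers present and past expression alike. The other 8 libraries of the series, which measured DNase accessibility, are not used here.

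These receptors are C-type lectin-like proteins, encoded in mouse by clustered genes, that pass either an activating or an inhibitory signal. CD94, the product of Klrd1, pairs with NKG2A (Klrc1), which inhibits, or with NKG2C (Klrc2), which activates, and both pairs bind the nonclassical class I molecule Qa-1. NKG2D (Klrk1) binds stress-induced ligands of the Rae1 and H60 families and signals through the adaptors Hcst and Tyrobp. NK1.1 (Klrb1c) is an activating receptor used to define NK and NKT cells in C57BL/6 mice, Klrb1b encodes an inhibitory relative that binds Clr-b (Clec2d), and KLRG1 is an inhibitory receptor for cadherins that marks terminally differentiated effector T cells.

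The genes lie on chromosome 6. In the RefSeq gene order Klrd1, Klrk1, Klrc3, Klrc2 and Klrc1 follow each other as neighbouring protein-coding genes, Klrb1c and Klrb1b are neighbours, and Klrg1 stands apart from both clusters. RefSeq start regions (250 bases before to 50 after the start, build GRCm38.p6) were found for 5 of the 7 genes. Klrg1 and Klrd1 had no entry. The regions of 4 are shown. Of these, 3 are neighbours that rose together in ZsGreen+ spleen cells (Klrk1, Klrc1 and Klrc2). Klrb1b, with few reads in the spleen, did not pass the test there. The region of Klrb1c, which also rose there, is not shown. Each region shown is written 5' to 3' on the gene's strand. Capitals mark a core Runx word, TGTGGT or its reverse complement ACCACA, or, in Klrb1b, the T-box word GGTGTG.
Klrk1, chr6:129623815-129624114, minus strand: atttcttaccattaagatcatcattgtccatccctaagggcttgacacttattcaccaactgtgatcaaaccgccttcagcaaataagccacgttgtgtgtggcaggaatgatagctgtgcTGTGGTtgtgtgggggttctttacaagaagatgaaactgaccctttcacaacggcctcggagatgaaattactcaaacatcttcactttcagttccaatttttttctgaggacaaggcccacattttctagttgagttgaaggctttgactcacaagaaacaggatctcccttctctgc
Klrc1, chr6:129678924-129679223, minus strand: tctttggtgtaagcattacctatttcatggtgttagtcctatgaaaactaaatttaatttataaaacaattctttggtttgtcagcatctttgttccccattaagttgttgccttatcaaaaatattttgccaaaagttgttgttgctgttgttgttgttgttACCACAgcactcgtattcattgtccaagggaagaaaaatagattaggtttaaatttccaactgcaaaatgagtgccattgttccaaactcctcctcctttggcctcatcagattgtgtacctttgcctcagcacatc
Klrc2, chr6:129660547-129660846, minus strand: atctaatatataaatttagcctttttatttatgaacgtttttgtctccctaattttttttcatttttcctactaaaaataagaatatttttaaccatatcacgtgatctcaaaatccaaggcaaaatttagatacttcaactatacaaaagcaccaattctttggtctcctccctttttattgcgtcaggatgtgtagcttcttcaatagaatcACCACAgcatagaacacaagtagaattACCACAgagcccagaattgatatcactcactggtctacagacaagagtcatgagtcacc
Klrb1b, chr6:128826266-128826565, minus strand: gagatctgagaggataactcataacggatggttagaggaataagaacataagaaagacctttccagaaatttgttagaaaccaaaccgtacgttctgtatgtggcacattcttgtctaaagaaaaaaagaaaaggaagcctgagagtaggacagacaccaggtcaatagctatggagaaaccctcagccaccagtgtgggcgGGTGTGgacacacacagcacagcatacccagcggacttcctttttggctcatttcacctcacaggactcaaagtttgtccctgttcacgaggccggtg
The word TGTGGT, on either strand, was in 4 of the 5 regions (those of Klrk1, Klrb1c, Klrc1 and Klrc2) and in 16.8% of all 32851 RefSeq start regions. Of the T-box words, AGGTGT, AGGTGTGA and TCACAC were in 0 of 5, against 13.7%, 1.28% and 14.5% of all regions. GGTGTG was in that of Klrb1b (19.0% of all), and GGTGTNA, which can overlap GGTGTG and AGGTGTGA, in that of Klrc1 (10.2% of all). The E-box word CAGCTG was in 0 of 5 (16.3% of all). These 7 words were chosen with the expression results known, and a match describes letters, not a bound site. The Klrc2 region was 98.3% identical to that of Klrc3 over 301 aligned columns, while the Klrc2 and Klrc1 regions were 46.6% identical. The Klrb1c region was 69.4% identical to that of Klrb1a. Where such likeness extends into the transcripts, reads of these paralogs may have been split or shared by the authors' counting.

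Sequencing depth was 13169783 to 24174592 reads over genes per library, with 15080 to 15326 symbols detected in the spleen libraries and 11154 to 11805 in the lymph node libraries. The spread among replicate libraries, as edgeR's common biological coefficient of variation, was 0.0867 for spleen and 0.908 for lymph node libraries. The labels do not say that the 2 libraries of a group came from separate animals, so p-values reflect only how these samples vary, and that variation may be technical. Tbx21 followed the sorts, at 45.3 and 46.4 RPKM (reads per kilobase of transcript, scaled to the size of the library) in ZsGreen- spleen cells, 193 and 214 in ZsGreen+ cells, 10.4 to 12.9 in the 4 Tomato- libraries and 53.0 to 183 in the 4 Tomato+ libraries. Cxcr5 and Pdcd1, the genes of the Tfh gate, were at 258 to 394 and 542 to 715 RPKM in Tfh libraries, and at 27.8 to 113 and 89.9 to 183 in non-Tfh libraries. Markers of CD4 T cells (9 genes, summed 2343 to 4041 RPKM) were present in every library.

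The spleen comparison sets ZsGreen+ cells, with current T-bet expression by the reporter, beside ZsGreen- cells, with past expression. ZsGreen- cells still held Tbx21 transcripts, at 45.3 and 46.4 RPKM, against 193 and 214 in ZsGreen+ cells. Of the 7 receptor genes 5 rose in ZsGreen+ cells, Klrg1 fell, and Klrb1b did not pass the test. The 5 that rose were Klrd1, Klrc1, Klrc2, Klrk1 and Klrb1c, with log2 fold changes of 3.22 to 3.94. The 6 calls (edgeR quasi-likelihood test, Benjamini-Hochberg adjusted p below 0.05) compare with 23.8% of the 12918 genes tested, 11.4% higher and 12.4% lower. The median log2 fold change was 3.55 over the 7 genes and 0.00 over all genes tested. In bulk samples a larger share of receptor-bearing cells and more RNA per cell cannot be told apart.

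Klrd1, whose product is the shared CD94 chain, was at 3.44 and 5.08 RPKM in the ZsGreen- libraries and at 44.5 and 37.4 in the ZsGreen+ libraries. It rose by 3.22 ± 0.18 (log2, SE; edgeR adjusted p = 2.26e-06). Its inhibitory partner Klrc1 was at 0.410 and 0.594 RPKM in ZsGreen- cells and at 7.26 and 8.78 in ZsGreen+ cells. Both partners were higher in each ZsGreen+ library than in either ZsGreen- library. Klrc1 rose by 3.93 ± 0.31 (edgeR adjusted p = 1.75e-05). The activating partner Klrc2 had 1 and 3 reads in ZsGreen- cells and 39 and 28 reads in ZsGreen+ cells, or 1.56 and 1.42 RPKM. Its depth-scaled read ratio was 16.3 (exact 95% interval 6.09 to 61.7, counting error only), and it rose by 3.94 ± 0.67 (edgeR adjusted p = 0.00212). Although its fold was as large as that of Klrc1, Klrc2 stayed the lowest of the 3 genes in level per length.

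Klrk1, the gene of the activating receptor NKG2D, was at 1.82 and 2.19 RPKM in ZsGreen- cells and at 24.4 and 23.9 in ZsGreen+ cells. The replicates lay close together and the groups did not overlap. It rose by 3.55 ± 0.11 (edgeR adjusted p = 1.43e-07). Klrb1c, the gene of NK1.1, was at 0.802 and 0.925 RPKM in ZsGreen- cells and at 11.5 and 11.7 in ZsGreen+ cells. It rose by 3.71 ± 0.14 (edgeR adjusted p = 2.08e-07), again with no overlap. Its relative Klrb1b, which encodes an inhibitory receptor, was hardly transcribed in the spleen, with 4 and 8 reads in ZsGreen- cells and 15 and 10 in ZsGreen+ cells. Its highest spleen value was 0.195 RPKM, and the difference of 0.995 ± 0.657 did not pass (edgeR adjusted p = 0.318).

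Klrg1 went the other way. It was at 22.6 and 22.7 RPKM in ZsGreen- cells and at 18.1 and 15.1 in ZsGreen+ cells. Both ZsGreen+ libraries were lower, and Klrg1 fell by 0.48 ± 0.11 on the log2 scale (edgeR adjusted p = 0.0130), a 1.40-fold difference. This call rested on ZsGreen+ replicate 2: without that library the difference was -0.35 (edgeR adjusted p = 0.0776). Counted by overlap alone, all 7 genes separated the spleen groups, as did 62.7% of genes tested in either direction.

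**Figure D1:**
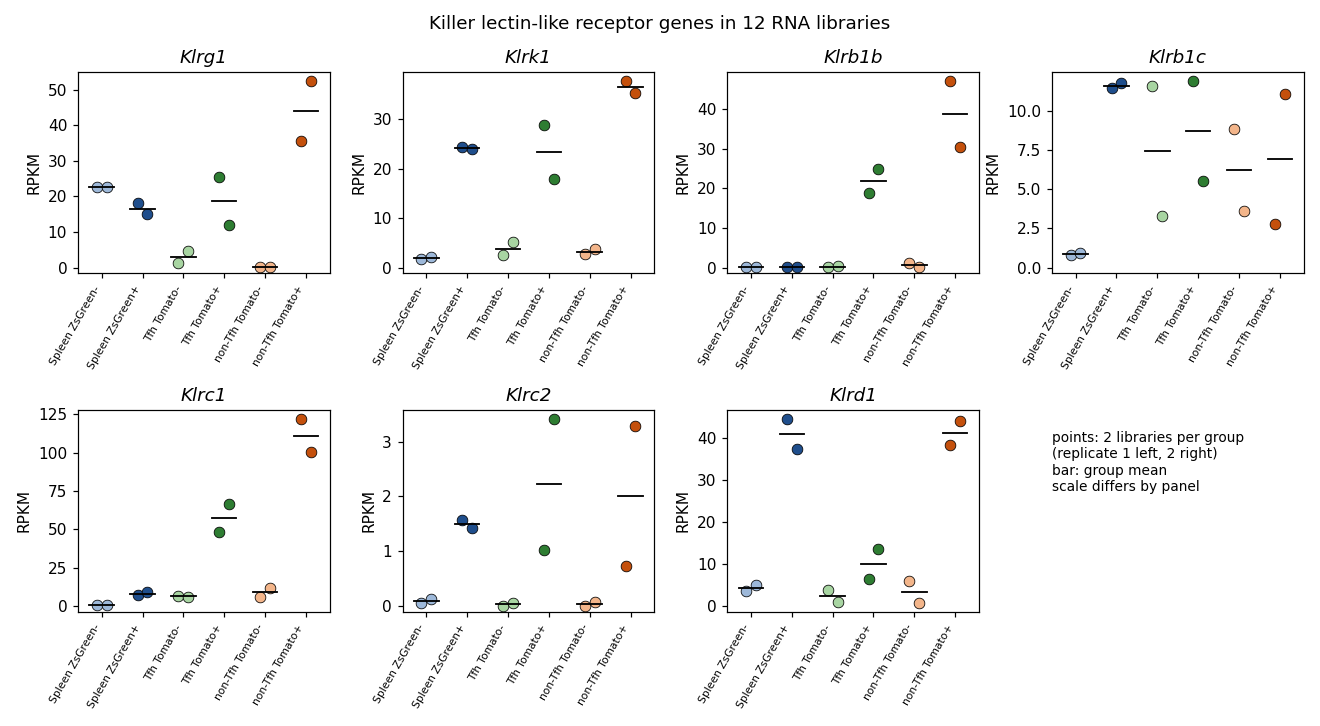
RPKM of each receptor gene (vertical axis, own scale per panel) in the 6 RNA groups (horizontal axis); points are the 2 libraries of a group and bars are group means. Klrk1 and Klrd1 are high in ZsGreen+ spleen and Tomato+ non-Tfh libraries, and Klrk1 also in Tomato+ Tfh libraries. Klrb1b only reaches 1.08 RPKM outside the Tomato+ libraries, and the Klrb1c points overlap among the 4 lymph node groups.

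The receptor transcripts thus differed in make-up as well as in amount. In ZsGreen- spleen cells the 7 genes summed to 29.2 and 31.7 RPKM, of which Klrg1 made up 77.5% and 71.5%. In ZsGreen+ cells they summed to 107 and 98.5 RPKM, and Klrd1 was the largest with 41.4% and 38.0%, followed by Klrk1 with 22.7% and 24.3%. Klrg1 was then 16.8% and 15.3% of the sum. Shares of a sum move together, and these are descriptions with no test.

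Markers of NK and innate-like T cells moved the same way in the spleen. Their summed level over 14 genes was 440 to 455 RPKM in ZsGreen- and 2039 to 2297 in ZsGreen+ libraries, and 13 of 14 rose (all but Itga2, and none fell). Among the defining markers, Zbtb16 (PLZF, the factor of NKT cells) was at 1.97 and 1.45 RPKM in ZsGreen- and at 23.2 and 25.2 in ZsGreen+ cells, and Ncr1 (NKp46) at 2.84 and 2.60 against 20.1 and 17.1. Their part in the receptor result was not tested. Of 9 CD4 T cell markers, 5 fell (Cd4, Cd5, Cd2, Lat and Cd28), with sums of 2991 to 3087 RPKM in ZsGreen- and 2343 to 2425 in ZsGreen+ libraries. Of 10 myeloid markers, Lyz2, Itgam and Mpeg1 rose (sums 915 to 1167 and 1311 to 1393 RPKM), and neither of the 2 CD8 markers nor any of 6 B cell markers passed. Of 9 gamma-delta T cell markers, 3 were in the tables, with sums of 4.21 to 5.42 RPKM in all 4 spleen libraries. Of these 3, Sox13 rose and Il23r fell. The counts of each marker list compare with 11.4% of all genes tested that rose and 12.4% that fell.

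In the lymph node the question is how AS15-specific Tomato+ cells, with present or past T-bet expression, differ from Tomato- cells, in each gate. Tomato- cells still held Tbx21 transcripts, at 10.4 to 12.9 RPKM. Among non-Tfh cells, Klrg1 and Klrk1 rose in Tomato+ cells, and none of the 7 genes fell. These 2 calls compare with 0.332% of the 11746 genes tested (0.204% higher). In 6 of 7 genes both Tomato+ libraries were above both Tomato- libraries, as in 19.0% of genes tested, the exception being Klrb1c. The median log2 difference was 3.68 over the 7 genes and 0.00 over all genes tested.

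Klrg1, the cadherin receptor gene, was nearly absent from Tomato- non-Tfh cells, with 5 and 3 reads (0.151 and 0.116 RPKM), and was at 35.4 and 52.4 RPKM in Tomato+ cells. It rose by 8.35 ± 1.13 (log2, SE; edgeR adjusted p = 0.0312), a size that depends on few reads in the lower group. Klrk1 was at 2.68 and 3.76 RPKM in Tomato- cells and at 37.8 and 35.2 in Tomato+ cells. It rose by 3.53 ± 0.52 (edgeR adjusted p = 0.0390). Both genes were far apart between the groups, but neither call held when any 1 of the 4 non-Tfh libraries was left out: adjusted p was then 0.0623 to 0.160 for Klrg1 and 0.0881 to 0.209 for Klrk1. The Klrk1 call also ended without Tfh Tomato+ replicate 1 (edgeR adjusted p = 0.0526), and both ended when the reads of all transcript rows of a gene were summed (0.0584 for each) and when the 4 non-Tfh libraries were fitted alone (0.0593 and 0.0728). Without the second library of both Tomato- groups the edgeR adjusted p was 0.134 for each.

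Klrc1, the gene of inhibitory NKG2A, had the highest level of the 7 genes per transcript length in Tomato+ non-Tfh cells. It was at 5.94 and 11.6 RPKM in Tomato- and at 121.6 and 100.5 RPKM in Tomato+ non-Tfh cells. The groups did not overlap, and the difference of 3.68 ± 0.60 missed the threshold (edgeR adjusted p = 0.0584; 1.56e-08 to 0.341 over the alternatives). Klrb1b was at 1.08 and 0.214 RPKM in Tomato- and at 47.0 and 30.5 in Tomato+ cells, a difference of 5.92 ± 0.97 (edgeR adjusted p = 0.0625; 7.98e-11 to 0.286 over the alternatives). Both lay well outside the range of the other group, yet at the spread of these libraries neither passed. Klrd1 was at 5.89 and 0.730 RPKM in Tomato- and at 38.5 and 44.0 in Tomato+ cells, a difference of 3.68 ± 1.38 (edgeR adjusted p = 0.490). Its 2 Tomato- libraries differed widely from each other.

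Klrc2 had 0 and 1 reads in Tomato- and 12 and 63 reads in Tomato+ non-Tfh cells. The depth-scaled ratio was 64.7 (exact 95% interval 11.3 to 2588, counting error only), and the edgeR test across libraries did not pass (adjusted p = 0.610). Klrb1c, by contrast, overlapped between the groups. It was at 8.81 and 3.58 RPKM in Tomato- and at 2.81 and 11.03 in Tomato+ cells, a difference of 0.21 ± 1.03 (edgeR adjusted p = 0.994). Its transcripts were thus present in Tomato- non-Tfh cells, at levels above the 0.925 RPKM maximum of ZsGreen- spleen cells.

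Among Tfh cells 0 of the 7 genes passed in Tomato+ against Tomato- cells by edgeR, where 0.111% of genes did. At an unadjusted p below 0.05 there were 4 of 7 and 685 of 11746 genes, and DESeq2 called 3 of 7 (Klrk1, Klrb1b and Klrc1) and 291 of 12132 genes. With limma on log2(RPKM + 1) there were 2 of 7 (Klrb1b and Klrc1) and 29 of 11007 genes. Even so, in 6 of 7 genes both Tomato+ libraries lay above both Tomato- libraries, as in 18.4% of genes tested. The exception was again Klrb1c. The median log2 difference was 2.62 over the 7 genes and 0.01 over all genes tested.

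Klrb1b gave the largest fitted difference of the 7 in Tfh cells. It had 6 and 17 reads in Tomato- cells (0.0929 and 0.299 RPKM) and was at 18.8 and 24.8 RPKM in Tomato+ cells, a difference of 6.78 ± 1.02 (edgeR adjusted p = 0.0786; 5.33e-13 to 0.350 over the alternatives). Klrc1 was at 6.47 and 5.99 RPKM in Tomato- and at 47.9 and 66.6 in Tomato+ Tfh cells, a difference of 3.18 ± 0.58 (edgeR adjusted p = 0.168; 4.17e-06 to 0.615 over the alternatives). For both genes the low and high libraries were clearly apart. Klrk1 was at 2.50 and 5.17 RPKM in Tomato- and at 28.8 and 18.0 in Tomato+ cells, a difference of 2.60 ± 0.50 (edgeR adjusted p = 0.203; 1.51e-04 to 0.880 over the alternatives).

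Klrg1 was at 1.38 and 4.67 RPKM in Tomato- and at 25.5 and 11.9 in Tomato+ Tfh cells, a difference of 2.62 ± 0.85 (edgeR adjusted p = 0.750). Klrd1 was at 3.795 and 0.854 RPKM in Tomato- and at 6.30 and 13.5 in Tomato+ cells, a difference of 2.06 ± 1.30 (edgeR adjusted p = 0.860). Within each of these groups the 2 libraries lay far apart. Klrc2 had 0 and 1 reads in Tomato- and 20 and 57 reads in Tomato+ cells, a depth-scaled ratio of 82.0 (exact 95% interval 14.3 to 3279, counting error only; edgeR adjusted p = 0.833). Klrb1c overlapped, at 11.6 and 3.28 RPKM in Tomato- and at 11.9 and 5.53 in Tomato+ cells (0.22 ± 1.03; edgeR adjusted p = 1).

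**Figure D2:**
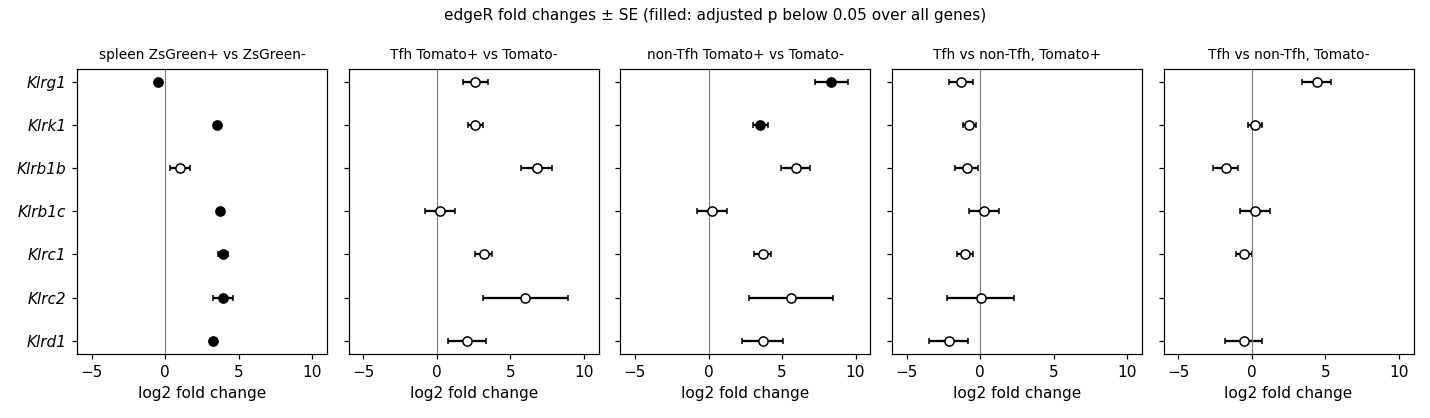
Fitted log2 fold change ± SE (horizontal axis) of each receptor gene (vertical axis) in 5 comparisons; filled points passed the edgeR test at an adjusted p below 0.05. In the spleen 6 points are filled, in the non-Tfh panel 2 (Klrg1 and Klrk1), and in the other panels 0. Klrc2 is left out of the last panel, where its groups had at most 1 read per library.

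Marker levels differed with Tomato in the lymph node as well, in both directions. The 14 NK and innate-like markers summed to 449 to 467 RPKM in Tomato- and 626 to 690 in Tomato+ Tfh libraries, and to 548 to 594 and 949 to 980 in non-Tfh libraries. None passed in Tfh cells, where 0.111% of genes tested did, and 1, Cxcr6, rose in non-Tfh cells, where 0.204% did. In Tomato+ non-Tfh cells Il2rb was at 326 and 372 RPKM and Cxcr6 at 536 and 455, the highest of the 14 there. In the same cells Ncr1 was at 2.06 and 0.943 RPKM, Zbtb16 at 1.08 and 0.102, and Eomes at 0.150 and 0.0100, and in Tomato+ Tfh cells Zbtb16 had no reads. Ncr1 was at 7.03 and 4.45 RPKM in Tomato+ Tfh cells and had no reads in Tomato- Tfh cells. Eomes was at 0.0198 and 6.475 RPKM in Tomato+ and at 0.00922 and 0.147 in Tomato- Tfh cells, and at 2.74 and 0.0851 in Tomato- non-Tfh cells. Xcl1 was at 8.15 and 21.7 RPKM in Tomato+ and at 0 and 0.155 in Tomato- Tfh cells, and at 8.39 and 10.3 against 3.94 and 0.105 in non-Tfh cells. Itga1 was at 0.900 and 0.587 RPKM in Tomato+ and at 0.0229 and 0.0195 in Tomato- Tfh cells, and at 7.59 and 2.62 against 0.0275 and 0.0264 in non-Tfh cells. Gzma was at 25.0 and 28.2 RPKM in Tomato+ and at 5.34 and 0.488 in Tomato- Tfh cells. In non-Tfh cells Gzma was at 37.5 and 63.4 against 0.328 and 6.00 RPKM. Ncr1 was at 0.0281 and 0.0360 RPKM in Tomato- non-Tfh cells. Both Tomato+ libraries thus lay above both Tomato- libraries in each gate for Xcl1, Itga1, Gzma, Ncr1, Il2rb and Cxcr6. Fcer1g and Tyrobp of the same list were lower in both Tomato+ libraries in each gate. Fcer1g was at 37.5 and 20.1 RPKM in Tomato+ and at 79.3 and 74.1 in Tomato- Tfh cells. In non-Tfh cells Fcer1g was at 22.1 and 15.1 against 125.5 and 131 RPKM. Cd160 was also lower in both Tomato+ Tfh libraries, and Txk in both Tomato+ non-Tfh libraries. The 10 myeloid markers summed to less in Tomato+ cells. Their sums were 902 to 1500 RPKM in Tomato- and 311 to 438 in Tomato+ Tfh libraries. In non-Tfh libraries the sums were 1320 to 1740 and 99.8 to 239. Of the 10, Il1b fell in Tfh cells, and Lyz2, Cybb, Il1b and Apoe fell in non-Tfh cells. Over all 11746 genes tested, 1 fell in Tfh and 15 in non-Tfh cells. The 2 CD8 markers summed to 15.3 to 42.4 RPKM and the 3 measured gamma-delta markers to 0.252 to 8.39 over the 8 lymph node libraries, with Sox13 at 0 reads in all 8, and none of them passed. The part of these markers in the receptor values was not tested.

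Tomato+ Tfh and Tomato+ non-Tfh cells, the same libraries as above, were then set side by side. None of the 7 genes passed by edgeR (0.0766% of genes did), with 0 of 7 at an unadjusted p below 0.05 (962 of 11746 genes) and 0 by DESeq2 and limma. Klrg1, Klrk1, Klrb1b, Klrc1 and Klrd1 were lower in both Tfh libraries than in both non-Tfh libraries, 5 of 7 against 17.0% of genes tested. Their differences were -1.32 ± 0.81, -0.73 ± 0.47, -0.92 ± 0.79, -1.05 ± 0.54 and -2.16 ± 1.30 (log2, SE; edgeR adjusted p = 0.673 to 0.888). Klrd1, the CD94 gene, had the largest of these, at 6.30 and 13.5 RPKM in Tfh and 38.5 and 44.0 in non-Tfh cells. Klrb1c and Klrc2 overlapped. The Klrc2 read ratio was 1.003 (exact 95% interval 0.721 to 1.40, counting error only). Tbx21 itself was lower in Tomato+ Tfh (53.0 and 106 RPKM) than in Tomato+ non-Tfh cells (163 and 183), a difference of -1.21 ± 0.32 that did not pass (edgeR adjusted p = 0.340). Whether the receptor levels follow the Tbx21 level was not tested.

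Among Tomato- cells 0 of the 7 genes passed between the gates by edgeR (0.179% of genes did). At an unadjusted p below 0.05 there was 1 of 7 (1060 of 11746 genes). This was Klrg1, which was at 1.38 and 4.67 RPKM in Tfh against 0.151 and 0.116 in non-Tfh cells, and was the 1 gene of 7 whose libraries did not overlap (37.1% of genes tested, in either direction). The difference was 4.40 ± 0.97 (edgeR adjusted p = 0.219), and DESeq2 called it among 606 of 11611 genes (adjusted p = 3.68e-04; 3.68e-04 to 0.646 over the alternatives). The other 6 overlapped, and for Klrc2, with at most 1 read per library, no fold is given.

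The difference of the Tomato effect between the gates was tested as an interaction, which uses the same 8 libraries as the comparisons above. None of the 11746 genes passed by edgeR (0%), with 1 of 7 receptor genes and 746 of all genes at an unadjusted p below 0.05. That gene was Klrg1, whose effect was larger in non-Tfh than in Tfh cells by 5.72 ± 1.26 (edgeR adjusted p = 0.774). DESeq2 called it among 210 of 11611 genes (adjusted p = 0.00135; 0.00135 to 0.9999 over the alternatives). Its low end rests on 5 and 3 reads in the Tomato- non-Tfh libraries. The interaction was 0.93 ± 0.67 for Klrk1, 0.50 ± 0.76 for Klrc1, -0.85 ± 1.14 for Klrb1b and 1.62 ± 1.78 for Klrd1, with edgeR adjusted p from 0.948 to 0.9999.

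Across the 6 groups the order of levels differed from gene to gene. This order is a description, since spleen and lymph node libraries came from different mice and sorts. Klrk1 was highest in Tomato+ non-Tfh cells (36.5 ± 1.81 RPKM; mean, SD, n = 2), then in ZsGreen+ spleen (24.2 ± 0.321) and Tomato+ Tfh cells (23.4 ± 7.66), which overlapped, and was at 2.004 to 3.83 in the ZsGreen- and the 2 Tomato- groups. Klrd1 was highest in Tomato+ non-Tfh (41.25 ± 3.95) and ZsGreen+ spleen cells (40.9 ± 5.02), which overlapped, and reached 9.90 ± 5.09 in Tomato+ Tfh cells. Klrc1 was at 111 ± 14.9 RPKM in Tomato+ non-Tfh and 57.2 ± 13.2 in Tomato+ Tfh cells, and at 8.02 ± 1.07 in ZsGreen+ spleen cells, which overlapped Tomato- non-Tfh cells (8.77 ± 4.01).

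Klrb1b was at 38.8 ± 11.7 and 21.8 ± 4.28 RPKM in Tomato+ non-Tfh and Tfh cells, which did not overlap, and its mean was 0.647 or less in the other 4 groups. Klrg1 was at 43.9 ± 11.98 RPKM in Tomato+ non-Tfh cells. Then came ZsGreen- spleen (22.6 ± 0.0573), Tomato+ Tfh (18.7 ± 9.64) and ZsGreen+ spleen cells (16.6 ± 2.14), of which neighbours in the order overlapped, and the Tomato- groups were lowest. Klrb1c overlapped between every pair of neighbours from ZsGreen+ spleen (11.6 ± 0.201) down to Tomato- non-Tfh cells (6.19 ± 3.69), and only ZsGreen- spleen cells (0.863 ± 0.0869) stood below. Klrc2 was at 1.49 to 2.22 RPKM in the ZsGreen+ and the 2 Tomato+ groups, whose neighbours overlapped, and at 0.0272 to 0.0886 in the others.

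**Figure D3:**
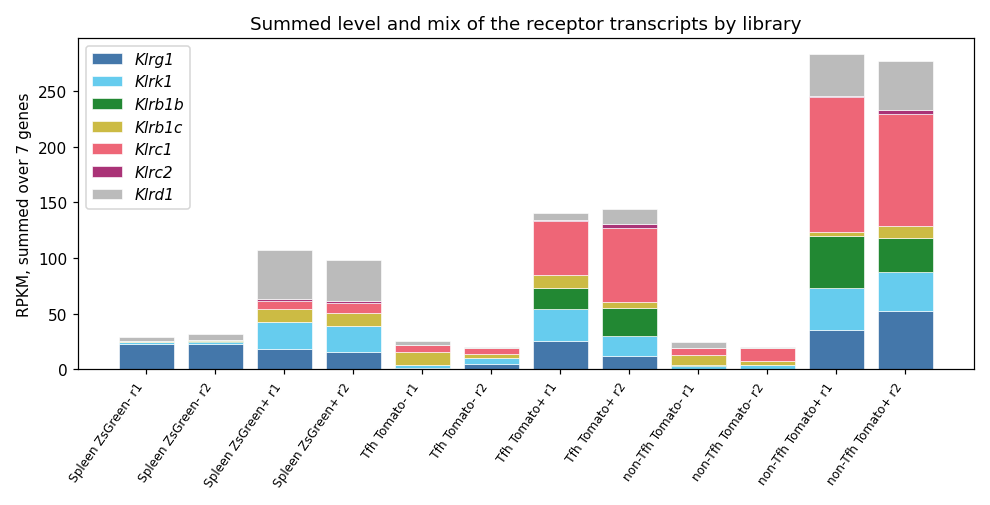
RPKM summed over the 7 receptor genes (vertical axis, from 0) in each of the 12 libraries (horizontal axis), with colours for the genes. Klrg1 fills most of the ZsGreen- spleen bars (71.5% and 77.5%), Klrd1 is the largest part of the ZsGreen+ bars, and Klrc1 is the largest part of all 4 Tomato+ bars (34.1% to 46.3%).

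In the lymph node the make-up of the receptor transcripts, again a description, led with other genes than in the spleen. The 7 genes summed to 20.1 to 25.8 RPKM in the 4 Tomato- libraries, to 140 and 144 in Tomato+ Tfh and to 284 and 277 in Tomato+ non-Tfh libraries. Klrc1 made up 34.1% to 46.3% of the sum in Tomato+ libraries, against 6.76% and 8.91% in ZsGreen+ spleen cells. Klrb1b made up 11.02% to 17.3% in Tomato+ libraries, against 0.167% and 0.181% in ZsGreen+ spleen cells. The ratio of the inhibitory chain gene Klrc1 to its partner gene Klrd1, in RPKM, was 0.117 to 0.235 in the 4 spleen libraries. It was 7.60 and 4.93 in Tomato+ Tfh, 3.16 and 2.28 in Tomato+ non-Tfh, and 1.01 to 15.9 in Tomato- libraries, where Klrd1 had as few as 12 reads. The lowest lymph node ratio lay above the highest spleen ratio. Transcript ratios are not ratios of surface protein, and tissue, mouse line and sort differed together, so their parts cannot be told apart.

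**Figure D4:**
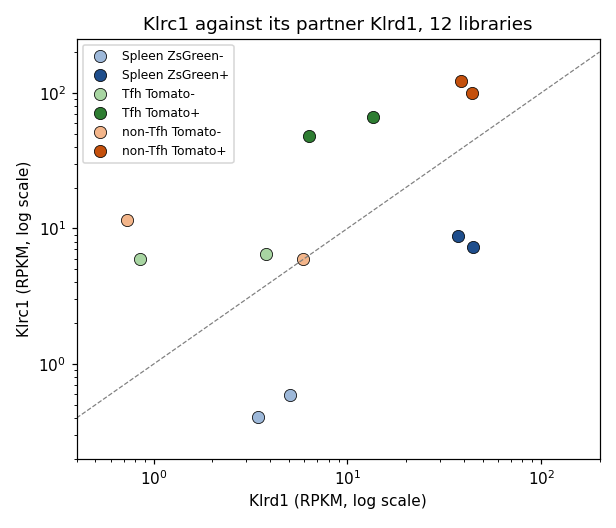
RPKM of Klrc1 (vertical axis, log scale) against RPKM of Klrd1 (horizontal axis, log scale) in the 12 libraries; the dashed line marks equal levels. The 4 spleen libraries lie below the line (ratios 0.117 to 0.235), and the 8 lymph node libraries lie on or above it (1.01 to 15.9).

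Among themselves, 6 of the 7 genes ran together over the 8 lymph node libraries. On log2(RPKM + 1), Pearson's r was 0.97 for Klrb1b with Klrc1, 0.96 for Klrk1 with Klrb1b, Klrc1 and Klrg1, and 0.72 for Klrc2 with Klrd1, while Klrb1c had r of -0.02 to 0.21 with the others. These coefficients mostly restate the split between Tomato+ and Tomato- libraries and carry no p. Over all 12 libraries and 8752 genes with a group mean of at least 5 RPKM, the genes outside the 7 with the most similar pattern to each were also listed. They were Rhbdf2 (0.94), Zbtb42 (0.93) and Kif22 (0.92) for Klrg1, and Gcnt2 (0.93), Cxcr6 (0.91) and 5430427O19Rik (0.87) for Klrk1. For Klrb1b they were Ifitm1 (0.98), Furin (0.96) and Ltb4r1 (0.96), and for Klrc1 they were H47 (0.96), Furin (0.94) and 5830411N06Rik (0.94), so Furin was listed for both. For Klrd1 they were F2rl2 (0.96), Ero1l (0.94) and Ctsw (0.93). Klrb1c had only weaker matches, in Gabarapl2 (0.78), Cltb (0.77) and Socs1 (0.77), and Klrc2 was under the level minimum.

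The rest of the family was counted in the same way. Of the other 28 killer lectin-like symbols, 25 could be tested in the spleen, where 22 rose in ZsGreen+ cells and 0 fell. Over all genes tested 11.4% rose and 12.4% fell. The median log2 fold change was 2.69 over the 25 and 0.00 over all genes tested. The 4 with the smallest adjusted p were Klra1 (3.26 ± 0.21), Klre1 (2.78 ± 0.19), Klra15 (2.77 ± 0.20) and Klra18 (2.71 ± 0.20; edgeR adjusted p = 4.02e-06 to 1.098e-05). Klra15 and Klra18 have no place in the RefSeq order of protein-coding genes used above, so their reads may belong to other Klra genes. Klra genes encode Ly49 receptors for classical class I molecules, and Klre1 an NK receptor that lies next to Klrd1. The 21 Klra genes summed to 14.3 to 15.3 RPKM in ZsGreen- and 87.7 to 101 in ZsGreen+ spleen libraries. Klrc3, whose start region nearly matches that of Klrc2, was at 1.26 and 1.45 RPKM in ZsGreen- and at 9.48 and 8.48 in ZsGreen+ cells. Klra6 and Klra19 had the same read count in all 12 libraries (258 reads in sum), so their rows are not separate measurements. Other Klra rows had similar counts. Klra4, Klra18 and Klra33 had 440, 464 and 397 reads in ZsGreen+ replicate 1, and 46, 46 and 42 in Tomato+ non-Tfh replicate 1. Such rows may share reads, so the 22 of 25 and the Klra sums may count the same reads more than once. Values of the near-identical Klra genes are uncertain.

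In the lymph node 17 of the 28 could be tested, and 0 passed in either Tomato comparison by edgeR. Over all genes tested 0.111% passed in Tfh and 0.332% in non-Tfh cells. The median log2 difference was 5.38 in Tfh and 5.06 in non-Tfh cells, but with genes read in 1 group alone (6 and 7 of 17) set at their bound against 3 reads per library, and the 2 genes with no reads in either non-Tfh group set at no change, it was 4.21 and 1.45. Klra3 had 69 and 71 reads in Tomato+ and none in Tomato- Tfh cells, and Klrc3 had 40 and 55 reads in Tomato+ and none in Tomato- non-Tfh cells. Other members differed between libraries of 1 group. The Klra sum was 4.37 and 32.5 RPKM in the 2 Tomato+ Tfh libraries and 3.77 and 8.76 in the 2 Tomato+ non-Tfh libraries, and Klri2 had 404 reads in Tomato+ Tfh replicate 1 and 1 in replicate 2. Klra2 was high in Tomato- cells instead, with 191 and 589 reads in non-Tfh and 0 and 223 in Tfh cells, against 0 to 2 in the 4 Tomato+ libraries. These genes were chosen for mention after their values were seen. Of the 7 receptor genes, all but Klrc2 were read in all 8 lymph node libraries. Klrc1, Klrk1 and Klrb1c had at least 106, 212 and 172 reads there, and Klrg1, Klrb1b and Klrd1 at least 3, 6 and 12.

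**Figure D5:**
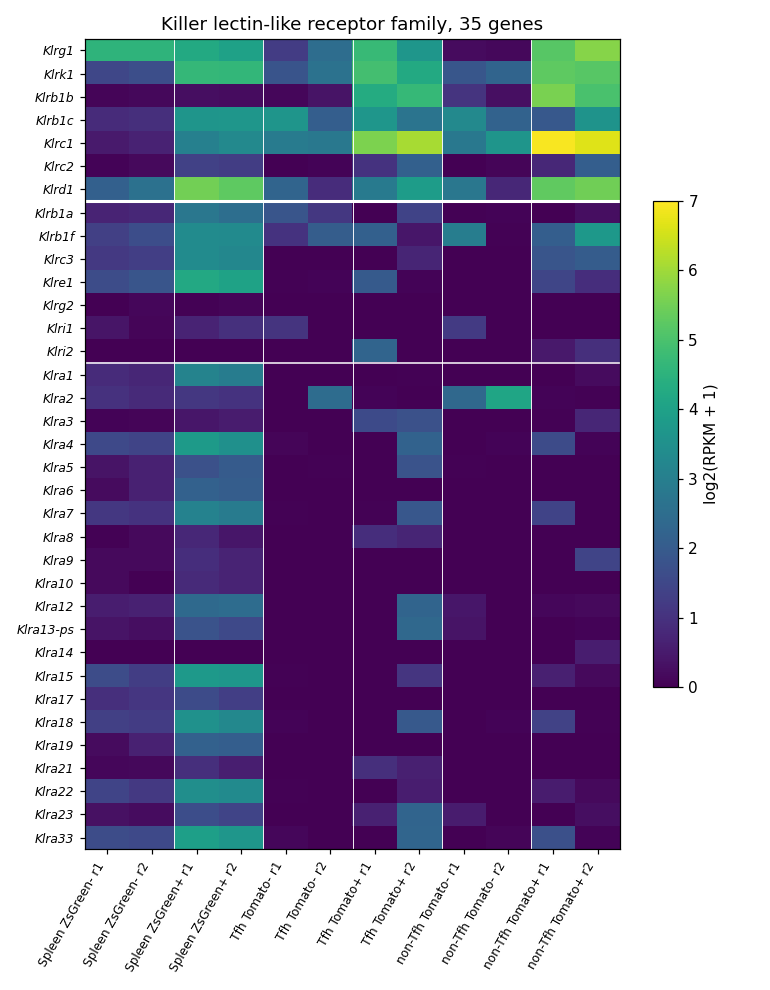
Level of 35 killer lectin-like genes (rows; the 7 described genes on top, then other genes, then Klra genes) in the 12 libraries (columns), as log2(RPKM + 1) by colour. The ZsGreen+ spleen columns are raised over most rows, while in the Tomato+ lymph node columns the top rows carry most of the signal and most Klra rows are near 0.

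Genes of the adaptors that these receptors signal through went both ways in the spleen. Of 20 adaptor and proximal signalling genes, 19 were tested in the spleen, where 8 rose and 4 fell in ZsGreen+ cells. Over all genes tested 11.4% rose and 12.4% fell. The median log2 change of the 19 was 0.05. Pik3r1 rose by 0.67 ± 0.07 and the adaptors Fcer1g and Tyrobp by 1.15 ± 0.13 and 1.099 ± 0.129, while Sh2d1a (SAP) fell by 0.62 ± 0.07 (edgeR adjusted p = 1.22e-04 to 2.59e-04). Hcst (DAP10), the partner of NKG2D, was abundant in both groups, at 240.7 and 267.9 RPKM in ZsGreen- and 387.4 and 423.8 in ZsGreen+ cells, and rose by 0.63 ± 0.09 (edgeR adjusted p = 5.95e-04). Fcer1g and Tyrobp are also among the NK markers above and are expressed by myeloid cells. In the lymph node 0 of 19 passed in either Tomato comparison, where 0.111% (Tfh) and 0.332% (non-Tfh) of genes tested did. Tyrobp was lower in Tomato+ cells there, at 13.4 and 14.1 against 137 and 114 RPKM in non-Tfh cells (-3.16 ± 0.55; edgeR adjusted p = 0.0816) and at 19.1 and 32.1 against 68.4 and 67.0 in Tfh cells (-1.42 ± 0.52; edgeR adjusted p = 0.813). Its levels thus ran opposite to those of Klrk1 and Klrc2, whose products can use it, and the same way as the myeloid marker sums.

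No ligand gene passed the test. Of 17 listed, 15 were in the tables, 6 could be tested in spleen and 4 in lymph node libraries, and 0 passed in any of the 5 comparisons by edgeR. Over all genes tested 23.8% passed in the spleen and 0.0766% to 0.332% in the lymph node comparisons. H2-T23, which encodes Qa-1, the ligand of the CD94 pairs, was abundant throughout. It was at 326 ± 9.28 RPKM in ZsGreen- and 342 ± 9.71 in ZsGreen+ spleen cells (0.03 ± 0.08; edgeR adjusted p = 0.804), and at 206 to 349 RPKM as group means in the lymph node. Clec2i was at 14.1 ± 1.30 RPKM in ZsGreen+ and 13.2 ± 0.514 in ZsGreen- spleen cells (0.05 ± 0.13; edgeR adjusted p = 0.808). Transcripts of the ligand and of its receptor chains were thus present in the same sorted populations.

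Of 15 lineage regulators, 7 rose and 5 fell in ZsGreen+ spleen cells, against 11.4% and 12.4% of all genes tested. Id3 fell by 2.89 ± 0.08 and Zbtb16 and Id2 rose by 3.79 ± 0.13 and 2.48 ± 0.13 (edgeR adjusted p = 1.43e-07 to 1.11e-06). Tbx21, whose ZsGreen reporter split the spleen groups, was higher by 2.11 ± 0.08. In the lymph node Tbx21 alone passed in Tfh cells (2.62 ± 0.34; edgeR adjusted p = 0.0442), and Tbx21 (4.08 ± 0.36) and Bhlhe40 (1.54 ± 0.16) passed in non-Tfh cells (edgeR adjusted p = 0.00753 and 0.0156). Over all genes tested 0.111% passed in Tfh and 0.332% in non-Tfh cells. Among Tomato- cells Bcl6, the regulator of Tfh cells, was higher in the Tfh gate by 2.14 ± 0.27 (edgeR adjusted p = 0.0301). There 0.179% of genes tested passed. Zbtb16 and Eomes, which also stand in the NK marker list, did not pass in any lymph node comparison.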

How the data were processed

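Per the labels' protocols, polyadenylated RNA of sorted cells was sequenced. The authors deposited, for each library, whole-number read counts and RPKM for 29257 RefSeq transcript rows. Per the submitters' processing notes the genome build was mm9 and the tools named were edgeR, Bowtie2, CASAVA 2.18 and SICER 1.1. The sources used here do not say which step used which tool, or if counting was stranded. In the deposited spleen tables the headers of the count and length columns are exchanged, and they were taken by their relation to RPKM. RPKM were used as the authors deposited them.

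For each symbol the row with the most reads was kept (4019 symbols, and 4 of the 7 receptor genes, had more than 1 row). Counts were tested with edgeR 4.0.16 in R 4.3.3 (TMM, filterByExpr, quasi-likelihood F test, Benjamini-Hochberg over all genes tested, threshold 0.05). The 4 spleen libraries were fitted alone and the 8 lymph node libraries together with 1 mean per group. The standard error is the absolute log2 fold change divided by the square root of F, and it does not cover the prior count where a group is near 0 reads. Read ratios carry exact intervals. The fit was tested on simulated counts, which for the lymph node were drawn at a smaller spread than the 0.908 of the real libraries. That simulation cannot show how the lymph node test behaves at the real spread.

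Alternatives were DESeq2 1.42.0, limma 3.58.1 (limma-trend) on log2(RPKM + 1) and log2(RPKM + 0.1) for genes of at least 1 RPKM in 2 libraries, DESeq2 size factors in edgeR, no filter, summed transcript rows, the replicate number as a block, leaving out libraries, and the 4 compared libraries alone. The 7 genes were all described in every comparison. Other genes were named as the 3 most similar by Pearson's r or as up to 4 genes per list ranked by adjusted p. Hcst, Klrc3, Klra2, Klra3, Klri2 and marker genes were named after their values were seen. Klra6 and Klra19 were named for their equal read counts, and Klra4 and Klra33 for counts similar to those of Klra18. Among ligands, Clec2g and Cdh1 ranked above H2-T23 and Clec2i in the spleen but were not described. The members and lists were chosen with earlier results of these data known. Gene positions on mm9 were not used here, so the DNase data were not analysed here. Start regions came from RefSeq (GRCm38.p6).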

Additional observations from a re-analysis of the deposited data

How the results depend on the processing

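In the spleen the count of calls was 6 under every alternative that kept all libraries. Over all genes these alternatives called from 2555 of 10793 to 3681 of 16806. Without ZsGreen+ replicate 2 the Klrg1 difference was -0.35. In Tfh cells (0 calls) there were 3 with DESeq2 (291 of 12132 genes) and 1 with no filter (25 of 13435). With limma there were 2 on log2(RPKM + 1) (29 of 11007) and 1 with a pseudocount of 0.1 (21 of 11007). In non-Tfh cells (2 calls) there were 5 with DESeq2 (648 of 11611), 4 with limma on log2(RPKM + 1) (71 of 11007), 4 with a pseudocount of 0.1 (59 of 11007) and 4 with no filter (65 of 13435). There were 0 with summed transcript rows (10 of 11780) and 0 with the 4 compared libraries alone (3 of 10598). Leaving out non-Tfh libraries also ended the Klrg1 and Klrk1 calls, as given above. DESeq2 called 1 of the 7 between the Tomato- gates (606 of 11611 genes) and 1 in the interaction (210 of 11611), against 0. The causes of these changes were not tested.

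With the replicate number as a block, non-Tfh cells had 0 calls (Klrg1 adjusted p = 0.0579), and no other count of calls changed. The numbers did not pair the samples: replicate deviations correlated at 0.06 in the spleen and at -0.01 to 0.03 in the lymph node.

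The values that changed sign were of genes that did not pass, mostly Klrb1c. Without both Tomato- second libraries Klrb1c was -0.42 in Tfh, -0.28 in non-Tfh cells and 0.14 in the interaction, and Klrk1 was -0.12 and Klrc1 0.10 between Tomato- gates. Klrb1c was -0.0092 in non-Tfh cells with limma at a pseudocount of 0.1, and with the replicate block -0.0875 between Tomato+ gates and 0.25 in the interaction. Klrb1b was 0.37 in the interaction with limma on log2(RPKM + 1). When 1 library was left out, Klrb1c ran from -0.46 to 1.39 in Tfh, -1.16 to 0.98 in non-Tfh, -0.45 to 1.58 between Tomato+ gates, -0.95 to 0.99 between Tomato- gates and -1.35 to 0.76 in the interaction. Klrc2 ran from -1.05 to 1.54 between Tomato+ gates. Between Tomato- gates Klrk1 ran from -0.41 to 0.64, Klrd1 from -1.98 to 1.60 and Klrc1 from -0.964 to 0.0371, and Klrb1b ran from -1.89 to 0.71 in the interaction. A fit left with 1 library in a group assumes that it varies like the others.

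Depth limits Klrc2, Klrg1 in Tomato- non-Tfh cells and Klrb1b in the spleen, which rest on few reads. With 2 libraries per group and the lymph node spread, an absent call there does not show equal levels.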
